A study of Mus musculus with 20 samples.

Results

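Connexins are the subunits of gap junctions, and 5 of their genes, Gja4, Gja1, Gja5, Gjc1 and Gjb2, were followed in mouse ovaries that lacked Figla or Lhx8. They were taken by symbol, as connexins of the oocyte and of the somatic cells around it, and all 5 were matched among the 49585 genes of the count tables. Both targeted genes encode transcription factors of the oocyte, and the study asked how they act on oocyte growth around birth. RNA-seq of whole ovaries from B6D2F1 mice covered a Figla set of 14 libraries and an Lhx8 set of 6.

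The Figla set held 4 Figla-/- and 4 control libraries at embryonic day 18.5 (E18.5), and 3 of each at the day of birth (P0). The Lhx8 set held 3 Lhx8-/- and 3 control libraries at P0. The genotype field gives the controls as Figla+/- or Lhx8+/-, while the Lhx8 library names call them WT, so they are called controls here. The sources used here do not say how the alleles were made or how many animals each library holds. The p-values therefore cover the spread among these libraries only, and some of it may be technical.

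Connexin subunits form a hexameric half-channel in the membrane of a cell, and half-channels of neighbouring cells dock into a channel that passes ions and small molecules such as cyclic nucleotides and metabolites. In the mouse follicle, the oocyte contributes Cx37, the product of Gja4, to channels shared with granulosa cells, and granulosa cells are joined to each other mainly by Cx43, the product of Gja1. Female mice without Gja4 are infertile, and both genes are also expressed outside the follicle, Gja4 in arterial endothelium and Gja1 in many somatic cells.

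Libraries held 5583392 to 13408022 counts in the Figla set and 8297204 to 9978350 in the Lhx8 set. At E18.5, Figla knockout replicates 1 and 2, and control replicates 1 and 2, were near-identical pairs, with a chi-square per degree of freedom of 1.32 and 1.12, against 6.62 to 62.3 in the 22 other pairs of replicates. Each of these pairs was summed and counted as 1 sample, written replicate 1-2, which leaves 3 samples in every group. Library names and titles disagree on the genotype of 6 of the 14 Figla libraries and of 6 of the 6 Lhx8 libraries, and libraries were grouped by library name. By that grouping Figla took 0.722 to 1.56 CPM (counts scaled to a common library total) in E18.5 knockout libraries against 3.94 to 27.2 in controls, and 0.175 to 0.647 in P0 knockouts against 32.5 to 39.5 in controls. Lhx8 took 18.1 to 31.0 CPM in Lhx8 knockouts against 89.4 to 101 in controls; these libraries read the 3′ end, and which part of the gene was deleted is not given in the sources used here. The library labelled E18.5 control replicate 3 stands apart from the other controls: it is the shallowest and held the 3.94 CPM of Figla. The E18.5 fold changes of Gja4 and Gja1, and the age differences of Gja4 that use controls, are given with and without it, and E18.5 control means include it.

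At birth, the Gja4 transcript was lower and the Gja1 transcript higher in both knockouts than in their controls. Gja4 fell 4.44-fold in Figla knockout ovaries and 4.34-fold in Lhx8 knockout ovaries, while Gja1 rose 1.42-fold and 1.77-fold. edgeR called no other member, and none at E18.5. Of the 4 members tested at P0 in the Figla set, 1 rose and 1 fell, where 16.0% of the 17321 genes tested were called, 5.12% higher and 10.9% lower. Of the 3 members tested in the Lhx8 set, 1 rose and 1 fell, where 10.4% of 15274 genes were called, 3.06% higher and 7.29% lower. Calls are edgeR quasi-likelihood tests at an adjusted p under 0.05.

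**Figure D1:**
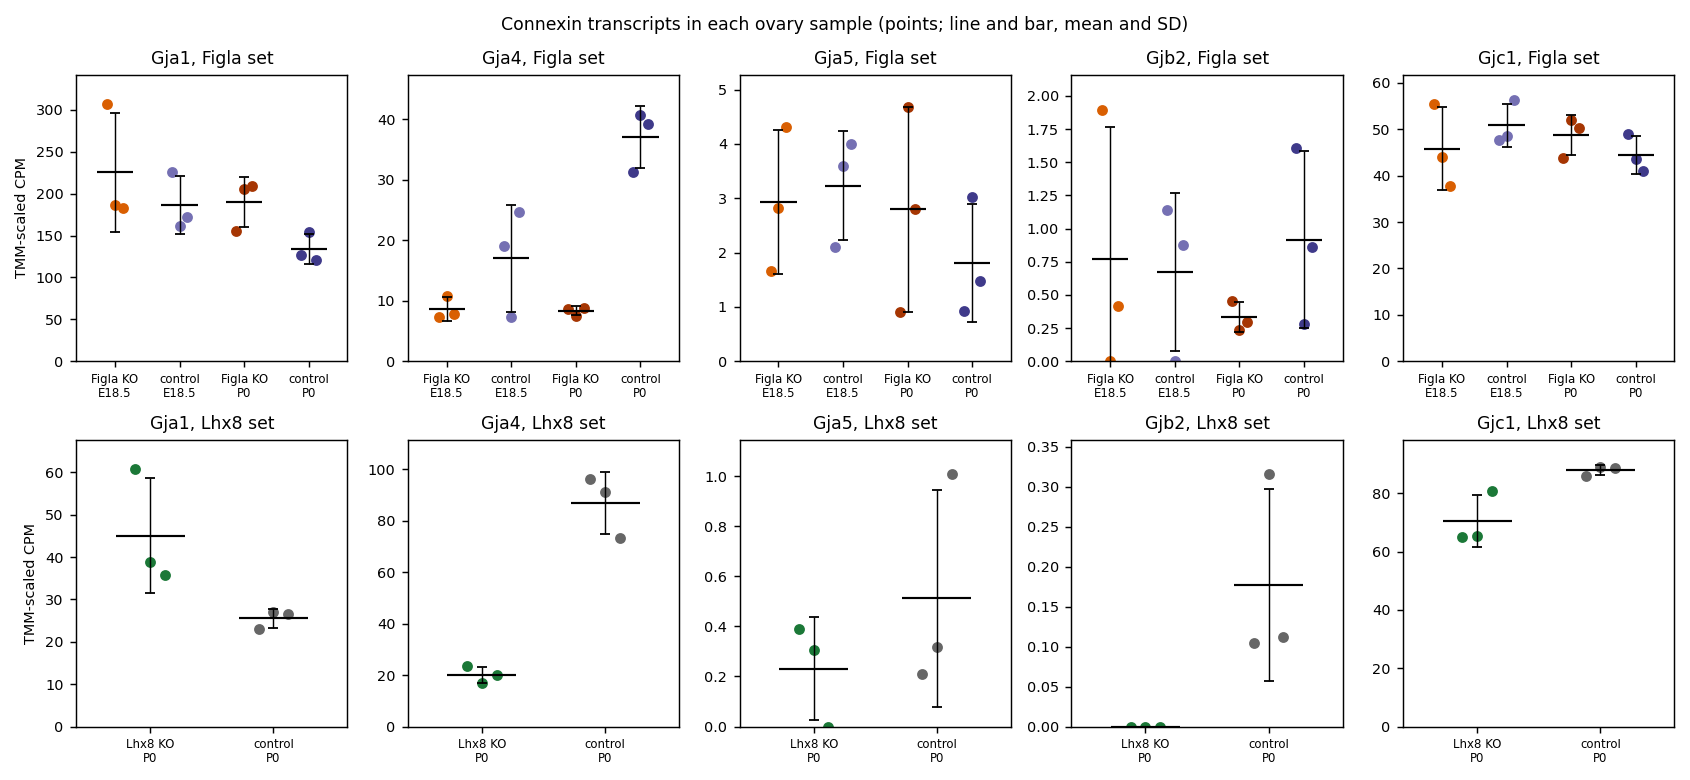
Level of each connexin in every sample, as CPM on library sizes scaled by TMM, with points for samples and a line and bar for the mean and SD of 3 samples. Top row, Figla set; bottom row, Lhx8 set; each knockout stands left of its control, and the scale differs between panels. Gja4 in P0 knockouts lay below all P0 controls in both sets and Gja1 lay above them, while Gja5 and Gjc1 overlapped at both ages of the Figla set.

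Gja4 lies on chromosome 4 at 127311421 to 127314039 on the minus strand of GRCm38, with 2 exons and 1685 exon bases. FIGLA is a basic helix-loop-helix factor, a class that binds the E-box CANNTG, and LHX8 is a LIM homeodomain factor, a class with a TAAT core in sites such as TAATTA. The 250 bases before the start sites of Gja4 and Gja1 are shown because these are the members that moved in both knockouts. They are RefSeq sequence of GRCm38.p6, written in the direction of transcription, Gja4 at chr4:127314040-127314289 on the minus strand and Gja1 at chr10:56377050-56377299 on the plus strand, with CANNTG matches in capitals.
Gja4: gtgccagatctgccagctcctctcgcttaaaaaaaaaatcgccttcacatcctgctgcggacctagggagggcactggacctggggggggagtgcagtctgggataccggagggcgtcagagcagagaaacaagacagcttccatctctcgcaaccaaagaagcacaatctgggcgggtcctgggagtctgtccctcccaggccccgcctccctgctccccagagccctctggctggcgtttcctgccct
Gja1: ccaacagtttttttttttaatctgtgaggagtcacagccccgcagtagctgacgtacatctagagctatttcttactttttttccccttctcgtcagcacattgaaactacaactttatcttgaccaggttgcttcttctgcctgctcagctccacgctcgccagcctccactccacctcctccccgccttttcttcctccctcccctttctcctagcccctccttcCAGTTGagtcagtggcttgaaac

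The Gja4 window, 61.2% G and C, held no CANNTG and no TAATTA on either strand. The Gja1 window, 50.0% G and C, held 1 such E-box, spelled CAGTTG, at bases -23 to -18 from the start site. A CANNTG is a common match, present in 66.2% of the 32851 windows of the same length, and TAATTA was present in 4.84% of them. Of the 4 members with a window in the table, Gjb2 also held 1 E-box, spelled CAGGTG, at -9 to -4, Gja5 held none, and no window held TAATTA. The Gja5 window, at chr3:97032152-97032401 on the plus strand, lies inside the gene span of the count annotation, which starts at 96904693. The shorter TAAT core was not searched for, so a window without TAATTA can still hold it, as the Gja1 window shown does. The matches describe these letters and are not evidence of binding.

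In P0 Figla knockout ovaries Gja4 measured 8.65, 7.47 and 8.89 CPM in replicates 1 to 3, against 31.2, 40.7 and 39.3 CPM in P0 controls; CPM from here on are on TMM-scaled library sizes. The knockout samples lay close together and far below the lowest control. The means were 8.34 ± 0.760 CPM in knockouts and 37.1 ± 5.08 CPM in controls (SD, n = 3 each), and the log2 fold change was -2.15 (SE 0.16, edgeR adjusted p = 1.19e-05). The groups did not overlap, as was so for 20.4% of all genes in this direction. The knockouts held 278 Gja4 counts over the group, so Gja4 reads were still found without Figla.

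In Lhx8 knockout ovaries Gja4 measured 23.3, 16.8 and 19.9 CPM, against 96.3, 91.1 and 73.3 CPM in their controls. Again every knockout lay below every control, as was so for 18.1% of all genes. The means were 20.0 ± 3.26 CPM in knockouts and 86.9 ± 12.1 CPM in controls (SD, n = 3 each), and the log2 fold change was -2.12 (SE 0.17, edgeR adjusted p = 6.67e-05). CPM of the Lhx8 set count transcript ends and cannot be set against CPM of the Figla set, and no model held both knockouts. The fall stayed past the threshold in 11 of 11 alternatives in the Figla set, at log2 fold changes of -2.27 to -2.08, and in 10 of 10 in the Lhx8 set, at -2.24 to -2.02, grouping by title aside.

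Oocyte markers were lower in the same samples. The 6 oocyte growth markers, among them the zona pellucida genes Zp1, Zp2 and Zp3, summed to 3.46 to 4.99 CPM in P0 Figla knockouts against 253 to 469 CPM in controls, with Zp1, Zp2 and Zp3 at 0 in every knockout sample. In Lhx8 knockouts they summed to 7.10 to 33.2 CPM, with Zp1 at 0, against 295 to 360 CPM in controls. The 6 germ cell markers, such as Dazl and Ddx4, summed to 739 to 772 CPM in P0 Figla knockouts against 1249 to 1669 CPM in controls, and to 499 to 608 CPM in Lhx8 knockouts against 803 to 972 CPM in controls. Of the 6 germ cell markers 5 fell in P0 Figla knockouts and 3 in Lhx8 knockouts, where Dazl stood at -0.14 on the log2 scale (edgeR adjusted p = 0.607) and Mael at 0.20 (adjusted p = 0.352). In whole ovaries, fewer cells of a type and less RNA per cell cannot be told apart, and the part of these markers in the fall of Gja4 was not tested.

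Gja4 is also an endothelial connexin, so endothelial markers are given as well. Of the 8 listed, edgeR called none lower in either P0 knockout. The 8 endothelial markers, among them Pecam1 and Cdh5, summed to 488 to 558 CPM in P0 Figla knockouts against 294 to 412 CPM in controls, and 4 of the 8 rose, with a median log2 fold change of 0.54 where the median of all genes tested was 0.02. The 5 arterial markers, among them Sox17 and Dll4, summed to 113 to 133 CPM in P0 Figla knockouts against 103 to 126 CPM in controls, and 1 of the 4 tested rose. In Lhx8 knockouts the endothelial sum was 514 to 602 CPM against 490 to 531 CPM in controls, with 0 of 8 called by edgeR, 3 at an unadjusted p under 0.05 and 1 by DESeq2, and the arterial sum was 27.3 to 40.8 CPM against 31.5 to 38.6 CPM. Of the 3 arterial markers tested there, edgeR called 0, 0 had an unadjusted p under 0.05 and DESeq2 called 0. Hey1, an arterial transcription factor singled out here after its values were seen, was lower without overlap in both knockouts, at -0.55 on the log2 scale in P0 Figla knockouts (SE 0.19, unadjusted p = 0.0154, edgeR adjusted p = 0.0751) and -0.41 in Lhx8 knockouts (SE 0.33, adjusted p = 0.453). Such a separation was found for 20.4% of all genes in the P0 Figla comparison and 18.1% in the Lhx8 comparison. The part of endothelial cells in the fall of Gja4 was not tested, and which cells hold the remaining Gja4 transcript was not measured.

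**Figure D2:**
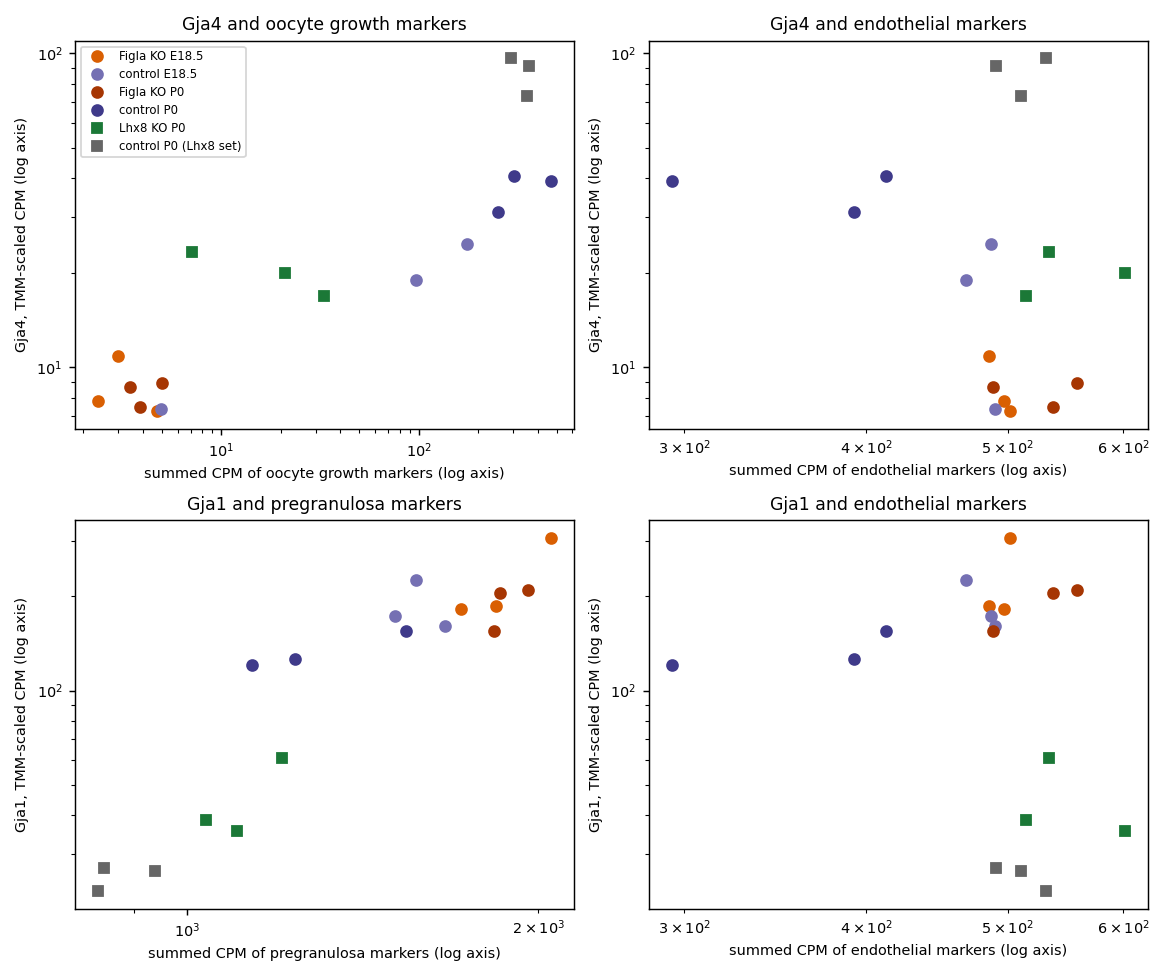
Level of Gja4 (top) and Gja1 (bottom) against summed CPM of marker lists, with 1 point for each sample and log axes; circles are the Figla set and squares the Lhx8 set, whose CPM are not on a common scale. In the Figla set the 5 controls with 97.3 to 469 CPM of oocyte growth markers had 18.99 to 40.7 CPM of Gja4, above the other samples, and the library labelled E18.5 control replicate 3 lay with the knockouts. Gja1 and the summed pregranulosa markers were both higher in the P0 knockouts of each set than in their own controls.

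At E18.5 the Gja4 difference did not pass the test. Gja4 measured 7.24, 10.8 and 7.79 CPM in Figla knockout replicates 1-2, 3 and 4, against 18.99, 7.37 and 24.7 CPM in controls. The knockouts overlapped the controls through control replicate 3 alone. The means were 8.62 ± 1.93 CPM in knockouts and 17.0 ± 8.85 CPM in controls (SD, n = 3 each), and the log2 fold change was -0.98 (SE 0.41, unadjusted p = 0.0437, edgeR adjusted p = 1.00). Without control replicate 3 it was -1.32 (adjusted p = 0.147), and without both samples numbered 3 it was -1.53 (adjusted p = 0.198). Oocyte growth markers summed to 2.37 to 4.71 CPM in E18.5 knockouts against 4.97 CPM in control replicate 3 and 97.3 and 175 CPM in the other controls.

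In controls the Gja4 level was higher at P0 than at E18.5 in every sample, at 31.2 to 40.7 CPM against 7.37 to 24.7 CPM, but the call was not made. The log2 difference was 1.11 (1.105; SE 0.32, edgeR adjusted p = 0.0810), and 14.9% of all genes were higher without overlap. Without E18.5 control replicate 4 it was 1.45 (adjusted p = 0.0430), and without replicate 3 it was 0.77 (adjusted p = 0.166). In Figla knockouts Gja4 stood at 7.47 to 8.89 CPM at P0 against 7.24 to 10.8 CPM at E18.5, a log2 difference of -0.03 (SE 0.34, adjusted p = 0.981). The difference between the knockout effects at P0 and at E18.5 was -1.14 on the log2 scale (SE 0.46, unadjusted p = 0.0287, adjusted p = 0.913), so a difference between the ages was not shown. Without E18.5 control replicate 3 it was -0.80 (adjusted p = 1.00).

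Those age comparisons called few genes of any kind. Of 18379 genes, edgeR called 0 (0%) between controls of the 2 ages, with 4254 at an unadjusted p under 0.05 (23.1%) and 1616 called by DESeq2. It called 0 (0%) for the difference between the effects, with 977 at an unadjusted p under 0.05 (5.32%) and 3 called by DESeq2. In knockouts between ages it called 1 gene (0.00544%), with 2319 at an unadjusted p under 0.05 (12.6%) and 309 called by DESeq2; no member separated the ages there, while 9.77% of genes were higher and 9.65% lower without overlap. No member was called in any of these by edgeR, and DESeq2 called 1 member, Gja4, between the controls of the 2 ages (log2 difference 1.14, adjusted p = 0.00988). At E18.5, edgeR called 1 of 16131 genes (0.00620%) between knockout and control ovaries, with 607 at an unadjusted p under 0.05 (3.76%) and 78 called by DESeq2. None of the 4 members tested there was called by either tool, and 1, Gja4, had an unadjusted p under 0.05. No member separated the groups at E18.5, where 3.17% of genes were higher and 4.25% lower without overlap.

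Gja1 lies on chromosome 10 at 56377300 to 56390419 on the plus strand of GRCm38, with 2 exons and 3105 exon bases. In P0 Figla knockout ovaries it measured 156, 205 and 209 CPM, against 126, 155 and 121 CPM in P0 controls. Every knockout sample lay above every control, though knockout replicate 1 and control replicate 2 were near each other, at 155.5 and 154.8 CPM, and 15.2% of all genes were higher without overlap. The means were 190.0 ± 29.9 CPM in knockouts and 134 ± 18.3 CPM in controls (SD, n = 3 each), and the log2 fold change was 0.51 (SE 0.14, edgeR adjusted p = 0.0329). The call is not stable: it was lost without knockout replicate 2 (adjusted p = 0.122), knockout replicate 3 (0.151), control replicate 1 (0.0850) or control replicate 3 (0.0898). In 1 model of all Figla samples the call was lost as well (edgeR adjusted p = 0.181). It was past the threshold in 6 of 11 alternatives, with log2 fold changes of 0.43 to 0.63.

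In Lhx8 knockout ovaries Gja1 measured 60.8, 38.7 and 35.8 CPM, against 22.9, 27.1 and 26.6 CPM in controls. The groups did not overlap, as was so for 15.6% of all genes, and knockout replicate 1 was the highest sample. The means were 45.1 ± 13.7 CPM in knockouts and 25.5 ± 2.28 CPM in controls (SD, n = 3 each), and the log2 fold change was 0.82 (SE 0.21, edgeR adjusted p = 0.0342). It was past the threshold in 5 of 10 alternatives, with log2 fold changes of 0.55 to 0.96. The call was lost without knockout replicate 1 (log2 fold change 0.55, adjusted p = 0.0535), and without control replicate 1 (adjusted p = 0.136), 2 (0.104) or 3 (0.0907). With a replicate block it was lost as well.

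Pregranulosa and stromal cells both express Gja1 in mice, and the summed levels of their markers were higher in the same P0 knockouts. The 7 pregranulosa markers summed to 1833 to 1959 CPM in P0 Figla knockouts against 1136 to 1541 CPM in controls, and 2 of 7 rose, Kitl and Fst, with a median log2 fold change of 0.43. Foxl2, a transcription factor of granulosa cells, stood at 0.04 on the log2 scale there (adjusted p = 0.855), and Rspo1 at 0.01 (adjusted p = 0.964). In Lhx8 knockouts they summed to 1037 to 1206 CPM against 838 to 937 CPM in controls, and 1 of 6 tested rose, Kitl, with a median of 0.47; Rspo1 stood at 0.02 and Wnt4 at 0.09, and Foxl2 was not tested. The 6 stromal markers summed to 2502 to 2819 CPM in P0 Figla knockouts against 1695 to 2092 CPM in controls, and to 3144 to 3521 CPM in Lhx8 knockouts against 2098 to 2511 CPM in controls, with 3 of 6 called higher in each. The called genes were Pdgfra, Nr2f2 and Col1a1 in P0 Figla knockouts, but Dcn, Lum and Col1a1 in Lhx8 knockouts. Dcn stood at 0.08 on the log2 scale in P0 Figla knockouts, and Tcf21 at -0.11 in Lhx8 knockouts. The 7 mural and smooth muscle markers summed to 320 to 399 CPM in P0 Figla knockouts against 232 to 281 CPM in controls. Of these 7, 3 rose, Acta2, Myh11 and Pdgfrb (4 by DESeq2), with a median log2 fold change of 0.50. Tagln of the same list stood at -0.34 on the log2 scale (edgeR adjusted p = 0.5645). The part of these cell types in the rise of Gja1 was not tested.

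Of 5 surface epithelium markers 0 were called in P0 Figla knockouts (1 at an unadjusted p under 0.05, 0 by DESeq2) and 1 rose in Lhx8 knockouts. Of the macrophage markers 1 of 4 tested rose in P0 Figla knockouts and 0 of 5 in Lhx8 knockouts (1 at an unadjusted p under 0.05, 0 by DESeq2). edgeR called no steroidogenic marker in either (2 and 1 of 4 at an unadjusted p under 0.05, 1 and 1 by DESeq2), and no erythroid marker (0 of 6 and 3 of 4 unadjusted, 0 and 2 by DESeq2). At E18.5 edgeR called no gene of any marker list, and an unadjusted p under 0.05 was found for 6 of 6 erythroid, 2 of 3 oocyte growth and 1 of 6 germ cell markers (2, 1 and 0 by DESeq2).

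At E18.5 Gja1 measured 307, 186 and 182 CPM in Figla knockouts, against 225, 161 and 173 CPM in controls. The groups overlapped, and the summed replicate 1-2 was the highest sample of each group. The log2 fold change was 0.29 (SE 0.24, edgeR adjusted p = 1.00), without knockout replicate 1-2 it was -0.0056, and without control replicate 3 it was 0.21. In controls Gja1 was lower at P0 than at E18.5 in every sample, with a log2 difference of -0.48 (SE 0.21, edgeR adjusted p = 0.200; -0.57 without E18.5 control replicate 3), and 12.8% of all genes were lower without overlap. In knockouts the log2 difference between P0 and E18.5 was -0.25 (SE 0.21, adjusted p = 0.662). Within the E18.5 groups the summed stromal markers were lowest in replicate 1-2, where Gja1 was highest. They summed to 1316 CPM there in knockouts, against 2748 and 2732 CPM in replicates 3 and 4. In controls they summed to 1125 CPM, against 2900 and 3277 CPM. The summed pregranulosa markers were 2051 CPM in knockout replicate 1-2, against 1840 and 1717 CPM in knockout replicates 3 and 4. In control replicate 1-2 they were 1571 CPM, against 1664 and 1507 CPM in control replicates 3 and 4. The part of these cell types in the level of Gja1 at E18.5 was not tested.

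The ratio of Gja1 to Gja4 counts within a sample does not depend on library scaling. It was 17.97, 27.5 and 23.5 in P0 Figla knockouts, against 4.04, 3.81 and 3.08 in P0 controls. In Lhx8 knockouts it was 2.60, 2.30 and 1.80, against 0.238, 0.298 and 0.363 in controls, on counts of transcript ends. At E18.5 it was 42.4, 17.2 and 23.4 in Figla knockouts, against 11.9, 21.9 and 6.98 in controls, where control replicate 3 again fell among the knockouts. At P0 the ratio had to separate the groups, because Gja4 and Gja1 each did so in opposite directions, and it is given as a description.

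**Figure D3:**
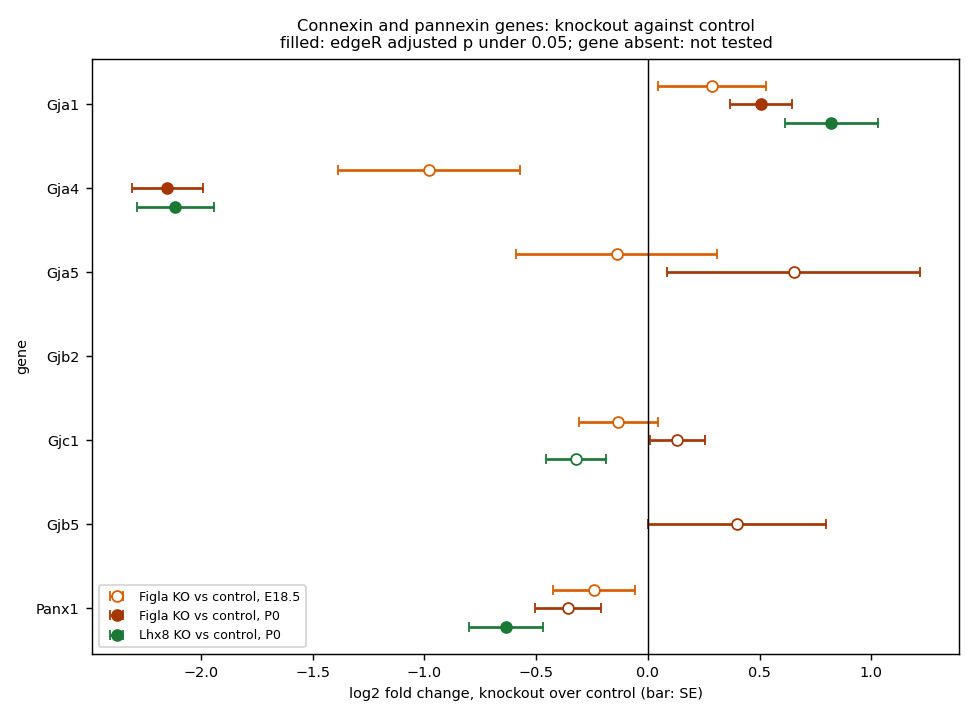
Log2 fold change of knockout over control for the 5 members, Gjb5 and Panx1, where they passed the count filter, with bars of 1 SE; filled points have an edgeR adjusted p under 0.05. The points of Gja4 at P0 lie at -2.15 (Figla) and -2.12 (Lhx8), those of Gja1 at 0.51 and 0.82, and Panx1 in Lhx8 knockouts is the other filled point, at -0.64.

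Gjc1 encodes Cx45, found in granulosa cells and vascular smooth muscle of mice. It lies on chromosome 11 at 102799579 to 102819700 on the minus strand of GRCm38, with 4 exons and 5003 exon bases. In the Figla set it measured 43.8, 52.0 and 50.3 CPM in P0 knockouts against 49.0, 43.6 and 41.0 CPM in P0 controls. The groups overlapped, and the log2 fold change was 0.13 (SE 0.12, edgeR adjusted p = 0.517). At E18.5 it measured 55.5, 44.0 and 37.9 CPM in knockouts against 47.7, 48.6 and 56.2 CPM in controls, and the difference was -0.13 on the log2 scale (SE 0.18, adjusted p = 1.00).

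In Lhx8 knockouts Gjc1 measured 65.1, 65.3 and 80.8 CPM, against 85.9, 89.0 and 88.7 CPM in controls. Every knockout lay below every control, as was so for 18.1% of all genes. The log2 fold change of -0.32 (SE 0.13, unadjusted p = 0.0384) did not pass the adjusted test (edgeR adjusted p = 0.156). The 7 mural and smooth muscle markers, such as Acta2 and Rgs5, summed to 227 to 244 CPM in Lhx8 knockouts against 155 to 224 CPM in controls, with 0 of 7 called by edgeR, 1 at an unadjusted p under 0.05 and 1 by DESeq2. Their log2 fold changes ran from -0.44 (Tagln) to 0.85 (Pdgfrb), with a median of 0.24. In P0 Figla knockouts, where 3 of these 7 rose, Gjc1 was not called. Between ages Gjc1 differed by -0.19 on the log2 scale in controls (SE 0.15, adjusted p = 0.477) and by 0.08 in knockouts (SE 0.15, adjusted p = 0.861), P0 over E18.5.

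Gja5 encodes Cx40, a connexin of arterial endothelium and of conducting heart muscle. It lies on chromosome 3 at 96904693 to 97077416 on the plus strand of GRCm38, with 6 exons and 5746 exon bases. Of these, 165 (2.87%) are shared with Gpr89 on the other strand, and since the counts ignore strand the reads of both genes cannot be told apart there. The other members share no exon base with another gene.

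Gja5 was low and variable. It measured 0.911, 4.69 and 2.80 CPM in P0 Figla knockouts against 0.931, 3.03 and 1.48 CPM in P0 controls, and 1.65, 2.83 and 4.31 CPM in E18.5 knockouts against 2.10, 3.60 and 3.999 CPM in E18.5 controls. The groups overlapped at both ages, and the spread within each group exceeded the difference between them. The log2 fold change was 0.65 at P0 (SE 0.57, edgeR adjusted p = 0.480) and -0.14 at E18.5 (SE 0.45, adjusted p = 1.00). In the Lhx8 set it had 4, 3 and 0 counts in knockouts against 2, 3 and 9 counts in controls and was not tested.

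Gjb2 encodes Cx26, a connexin of epithelia and of the inner ear. It lies on chromosome 14 at 57098600 to 57104702 on the minus strand of GRCm38, with 2 exons and 2406 exon bases. It was at the edge of detection, with 5, 3 and 3 counts in P0 Figla knockouts against 19, 3 and 11 counts in P0 controls. At E18.5 it had 39, 0 and 3 counts in knockouts against 20, 0 and 7 counts in controls, so most of its E18.5 reads came from the summed replicate 1-2 of each group. In Lhx8 knockouts it had no count, which allows up to 0.106 CPM over the group, against 1, 3 and 1 counts in controls. Gjb2 did not pass the count filter in any comparison of a knockout with its control, and no difference was detectable at this depth. In the model of all Figla samples, where it was tested, the effect at P0 minus that at E18.5 was -1.77 on the log2 scale (SE 1.35, edgeR adjusted p = 0.935).

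Levels of different genes can be set side by side only per length, as RPKM (CPM per kilobase of exon), and only in the Figla set. In P0 knockouts the order was Gja1 at 61.2 ± 9.65, Gjc1 at 9.74 ± 0.868, Gja4 at 4.95 ± 0.452, Gja5 at 0.487 ± 0.329 and Gjb2 at 0.138 ± 0.0465 RPKM (SD, n = 3). In P0 controls it was Gja1 at 43.2 ± 5.88, Gja4 at 21.99 ± 3.02, Gjc1 at 8.90 ± 0.821, Gjb2 at 0.381 ± 0.276 and Gja5 at 0.316 ± 0.189 RPKM (SD, n = 3). Gja4 and Gjc1 thus changed places, without overlap of their samples in either group at P0, while Gja5 and Gjb2 overlapped in both.

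At E18.5 Gja1 stood first as well, at 72.6 ± 22.9 RPKM in knockouts and 60.1 ± 11.0 RPKM in controls. Gjc1 was at 9.15 ± 1.79 and Gja4 at 5.12 ± 1.15 RPKM in knockouts, with no overlap of samples, against 10.2 ± 0.939 and 10.1 ± 5.25 RPKM in controls, where the samples of both genes overlapped through control replicate 3, at 4.37 RPKM of Gja4 against 11.3 and 14.7 RPKM in the other controls. Gja5 and Gjb2 came last, at 0.510 ± 0.232 and 0.320 ± 0.414 RPKM in knockouts against 0.563 ± 0.174 and 0.279 ± 0.248 RPKM in controls, and their samples overlapped in both groups. The same ranking of Gja1 first and Gja5 and Gjb2 last thus held in all 4 Figla groups.

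**Figure D4:**
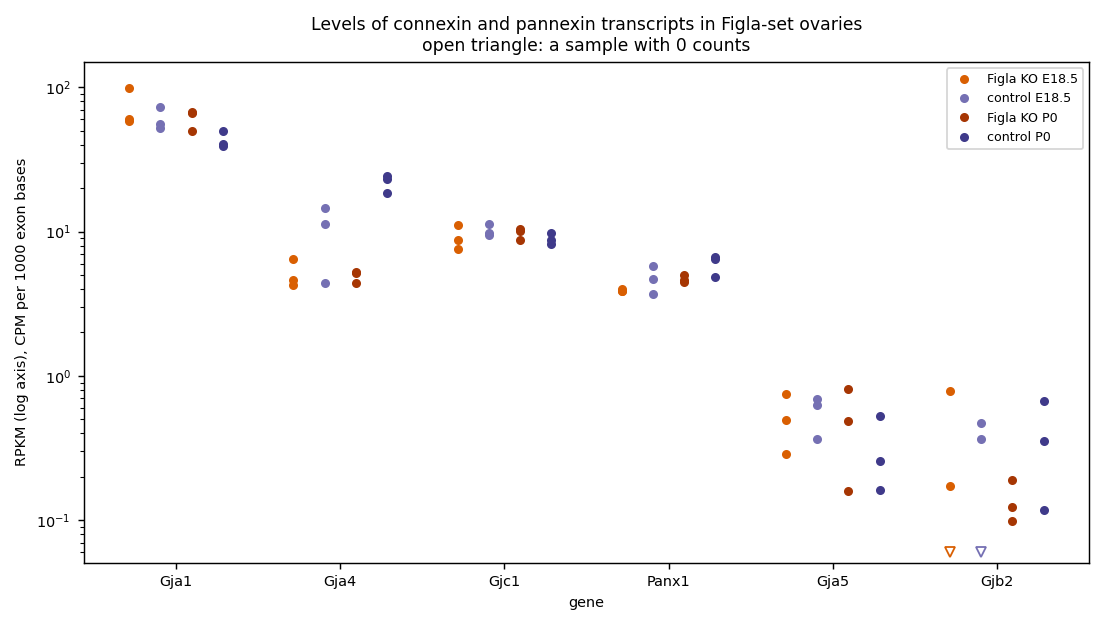
Level per length of the 5 members and Panx1 in the Figla set, as RPKM on a log axis with 1 point for each of 3 samples a group; open triangles mark samples with 0 counts. For Gja4 the P0 knockout points lie at 4.43 to 5.27 RPKM and the P0 control points at 18.5 to 24.1 RPKM.

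Members followed different patterns over the 12 Figla samples. Pearson's r of log2 CPM was -0.61 between Gja4 and Gja1, 0.48 between Gja1 and Gjc1 and -0.14 between Gja4 and Gjc1, as a description over samples that share groups. Among 18379 genes, those with a pattern most like Gja4 over the 12 samples were Th (r = 0.990), Acat1 (0.986) and Trp63 (0.986), and over the 6 samples of the Lhx8 set, which played no part in that choice, r with Gja4 was 0.990, 0.828 and 0.976. Those most like Gja1 were Mmd (0.957), Mmgt2 (0.952) and 4833413G10Rik (0.951), with 0.976, 0.511 and 0.573 in the Lhx8 set.

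The genes most like Gjc1 were Gm45820 (0.889), Gm23130 (0.847) and Dok7 (0.841), with 0.722, -0.619 and -0.256 in the Lhx8 set. For Gja5 they were Gm14410 (0.950), Egflam (0.946) and Plxna2 (0.926), with -0.318, -0.389 and -0.195, and for Gjb2 they were Meaf6 (0.938), Sf1 (0.911) and Usp36 (0.901), with -0.348, -0.025 and 0.597. Of these lists, the 3 genes of Gja4 are the ones with an r above 0.8 in the Lhx8 set throughout. Gja4 differed strongly between the knockouts and controls of that set, so a gene that also fell there would tend to have a high r. These r are a description over samples that share groups, and Gja5 and Gjb2 rest on few counts.

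None of the 15 other connexin genes listed was called in any of the 3 comparisons of a knockout with its control, at most 3 of them being tested; 1 of 3 had an unadjusted p under 0.05 in P0 Figla knockouts, 0 of 2 in each other comparison, and DESeq2 called 0. Gjb5 had a log2 fold change of 0.40 in P0 Figla knockouts (SE 0.40, edgeR adjusted p = 0.549). Gja10 and Panx2 were tested only in the model of all Figla samples, where the effect at P0 minus that at E18.5 was 0.54 (SE 1.06) and -1.03 (SE 0.96) on the log2 scale.

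Pannexins form single-membrane channels and not gap junctions in most cells. Panx1 measured 18.3, 24.2 and 21.9 CPM in Lhx8 knockouts against 36.8, 30.8 and 32.3 CPM in controls, with no overlap, as was so for 18.1% of all genes in this direction. It fell by 0.64 on the log2 scale (SE 0.17, edgeR adjusted p = 0.0390), a call lost without knockout replicate 1 (0.0690) or 3 (0.0644) and without control replicate 1 (0.153), 2 (0.0956) or 3 (0.0932). Grouping by title aside, Panx1 was past the threshold in 4 of 10 alternatives. In P0 Figla knockouts it measured 26.8, 27.8 and 30.3 CPM against 29.0, 39.3 and 40.5 CPM in controls, and the log2 fold change of -0.36 did not pass (SE 0.15, adjusted p = 0.128).

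Of 15 genes listed for proteins that bind, carry or turn over connexins or share their junctions, 2 rose and 2 fell of 15 tested in P0 Figla knockouts. Among all genes tested in that comparison, 5.12% were called higher and 10.9% lower. Ocln, a tight junction protein, was at 6.74 ± 1.12 CPM in knockouts and 17.7 ± 2.35 CPM in controls (SD, n = 3 each; log2 fold change -1.39, SE 0.19, edgeR adjusted p = 0.000833), and its call held in 11 of 11 alternatives. Cdh1, the epithelial cadherin, was at 18.6 ± 3.39 CPM in knockouts and 28.4 ± 5.19 CPM in controls (log2 fold change -0.61, SE 0.18, adjusted p = 0.0433). Ctnna1, the alpha-catenin that ties cadherins to actin, was at 301 ± 16.7 CPM in knockouts and 221 ± 24.8 CPM in controls (0.44, SE 0.11, adjusted p = 0.0193). Nedd4, a ubiquitin ligase that acts on Cx43, was at 1948 ± 55.2 CPM in knockouts and 1419 ± 219 CPM in controls (0.46, SE 0.12, adjusted p = 0.0310).

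The last 3 of these calls were fragile. Grouping by title aside, Ctnna1 was past the threshold in 6 of 11 alternatives, Cdh1 in 4 of 11 and Nedd4 in 4 of 11. Ctnna1 lost its call without knockout replicate 1 (0.0656), 2 (0.0526) or 3 (0.0671). Cdh1 lost its call without any one sample except control replicate 2, at adjusted p of 0.0762, 0.154 and 0.0708 without knockout replicates 1 to 3, and 0.0585 and 0.147 without control replicates 1 and 3. Nedd4 did likewise, at 0.0581, 0.0951 and 0.121 without knockout replicates 1 to 3, and 0.0799 and 0.0808 without control replicates 1 and 3.

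In Lhx8 knockouts 2 of the 14 genes tested rose and 1 fell, where 3.06% of all genes tested were called higher and 7.29% lower. Ocln was at 0.775 ± 0.183 CPM in knockouts and 3.03 ± 0.879 CPM in controls (log2 fold change -1.94, SE 0.45, edgeR adjusted p = 0.0232). Cdh1 was at 71.6 ± 24.6 CPM in knockouts and 31.8 ± 5.08 CPM in controls (1.17, SE 0.23, adjusted p = 0.0109), and Cav1, the caveolin that binds Cx43, was at 70.9 ± 18 CPM in knockouts and 36.2 ± 10.2 CPM in controls (0.97, SE 0.23, adjusted p = 0.0247). Cdh1 thus rose in Lhx8 knockouts and fell in P0 Figla knockouts; the kits differ and this difference was not tested. Cdh1 lost its call without control replicate 1 (0.0593) or 3 (0.0536), and Cav1 without control replicate 1 (0.109) or 2 (0.115). Ocln lost its call without knockout replicate 2 (0.0646) or 3 (0.0570) and without control replicate 1 (0.114), 2 (0.0531) or 3 (0.0661). Grouping by title aside, Ocln was past the threshold in 4 of 10 alternatives, Cav1 in 7 and Cdh1 in 8. At E18.5, edgeR called 0 of 14 of these genes, 1 had an unadjusted p under 0.05 and DESeq2 called 0.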

How the data were processed

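The deposited values are raw read counts per gene. Per the file headers, the authors ran featureCounts 1.6.0 against GENCODE M12 and ignored strand. The submitters' processing notes name cutadapt, HISAT2 and the build GRCm38.p5. Figla libraries came from a Nextera kit and Lhx8 libraries from a QuantSeq 3′ kit, per the labels' protocols.

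Of the 49585 gene IDs, 49326 were paired with a symbol. Counts were tested with edgeR 4.0.16 in R 4.3.3: filterByExpr (minimum count 10, minimum total 15), TMM scaling, the quasi-likelihood test and Benjamini-Hochberg adjusted p over all genes tested. SE is the absolute log2 fold change over the square root of the F statistic. Each knockout was compared with its own controls, and ages were compared in 1 model of all Figla samples. The procedure was run on counts simulated from the means and spreads of these samples. That simulation held no outlying sample and no effect shared by same-numbered samples, so it does not cover them. The fit kept 3 samples a group after near-identical libraries were summed. Alternatives were RLE size factors, DESeq2 1.42.0, no filter, each sample left out, other groupings and a replicate block.

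The members, marker lists and lists of other connexins and partners were chosen with earlier results of these data known. Named genes are the members, other connexins and pannexins that passed the filter in a Figla fit or were called, partners that were called, and the 3 genes with the highest r to each member (log2 CPM, prior count 2); some of the genes this rule names are not reported here. No molecular identifiers are recorded, so count limits (3 counts for a group at 0) cover counting error only.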

Additional observations from a re-analysis of the deposited data

How the results depend on the processing

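The direction of Gja4 and Gja1 at P0 held in both knockouts under every alternative tried except grouping by title, which swaps all Lhx8 labels: there Gja1 gave -0.82, Gja4 2.12, Gjc1 0.32, Ocln 1.94, Cdh1 -1.17, Cav1 -0.97 and Panx1 0.64 on the log2 scale. By title, Gja4 at P0 in the Figla set was -0.54 (adjusted p = 1.00) and Ctnna1 -0.02 (-0.01743). Connexins called at P0 in the Figla set numbered 2, against 1 to 2 with a sample left out, 1 in 1 model of all Figla samples and 0 by title; genes called numbered 2767, against 1423 to 2882, 1363, and 0 by title, and 1835 with agreeing labels only. In the Lhx8 set connexins called numbered 2, against 1 to 2 with a sample left out; genes called numbered 1582, against 630 to 1490 and 2682 without the filter. With the replicate block in the Lhx8 set, 1 connexin (Gja4) and 940 genes were called, and Gja1 had an edgeR adjusted p of 0.0833. Same-numbered samples deviated together with r of -0.154, 0.047 and 0.038, against -0.167 to 0.127 in the other pairings of a knockout with a control. A shared deviation was thus not seen, but so few samples cannot settle whether the numbers pair them. No paired analysis was run for the Figla set, because its library names carry serial numbers that run over both genotypes and do not say which samples pair. The replicate numbers used here follow that order. At E18.5 Gja1 was highest in replicate 1-2 of both groups (307 CPM in knockouts, 225 in controls). Lhx8 was lowest in replicate 3 of both (6.59 and 6.17 CPM). A factor shared by same-numbered Figla samples was not tested. No Lhx8 library has agreeing labels.

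At E18.5, where 1 gene and 0 connexins were called, the alternatives gave 78 genes with DESeq2, 229 without the filter, 34 with E18.5 libraries kept apart, 18 without both samples numbered 3, 53 in 1 model, 1082 with agreeing labels, 1093 by title and 0 to 89 with a sample left out, and 1 connexin (Gja1) by title. Gja1 was -0.28 with agreeing labels and -0.61 by title (adjusted p = 0.0473), Gja5 was 0.77 and 0.97, and with a sample left out Gja1 ranged from -0.0056 to 0.45 and Gja5 from -0.54 to 0.19. The count of genes whose effect differed between ages, 0, became 3 with DESeq2, 63 without the filter and 208 by title, where Gja5 was -0.0851 and Gjb2 1.35; Gjb2 ranged from -2.41 to 0.30 with a sample left out. For controls, P0 over E18.5, connexins called (0) became 1 with DESeq2, without the filter, with E18.5 libraries kept apart and by title, and 0 to 1 with a sample left out; genes called (0) became 1616, 1252, 1490, 1426 and 0 to 556 in that order. Gjb2 there was -0.15 without both samples numbered 3, -0.93 by title and -0.37 to 0.92 with a sample left out. For knockouts, P0 over E18.5, genes called (1) became 0 with RLE and without both samples numbered 3, 309 with DESeq2, 530 without the filter, 16 with E18.5 libraries kept apart and 0 to 150 with a sample left out. Near-zero members changed sign there: Gja5 was 0.0141 without the filter, Gja4 0.0301 and Gja5 0.16 with E18.5 libraries kept apart, Gja4 0.16 (0.155) and Gja5 0.000797 without both samples numbered 3, and Gja1 0.0257, Gja4 0.54 and Gjb2 0.42 by title; with a sample left out Gja1 ranged from -0.38 to 0.0458, Gja4 from -0.16 to 0.15, Gja5 from -0.62 to 0.39, Gjb2 from -1.92 to 0.56 and Gjc1 from -0.0320 to 0.26. DESeq2 called 5 pregranulosa markers in P0 Figla knockouts and 3 in Lhx8 knockouts, against 2 and 1 with edgeR. The cause of these shifts was not tested. In the Figla set Gja5 had 10 to 59 counts a sample and Gjb2 0 to 39, the lowest depths among the members.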
